A study of Arabidopsis thaliana with 6 samples.

Results

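The plastid of Arabidopsis thaliana carries a small circular genome of its own, and the RNA made from it was followed here in mature ovules. All rows of the gene table whose identifier begins with ATCG were taken, which gave 133 plastid-encoded genes among 33977 rows. One group was 3 ovule libraries labelled PRP8Aa prp8bb, from plants with disruptions in PRP8A and PRP8B, the genes for the largest protein of the spliceosome core. Per the labels, these ovules were a mixture in which every ovule lacked PRP8B while some kept PRP8A (PRP8A;prp8b) and some did not (prp8a;prp8b). The other 3 libraries came from wild type ovules. All ovules were dissected from flowers of stages 13 to 14 on 6-week-old plants kept in 16 h of light and 8 h of dark, and RNA was depleted of ribosomal RNA before stranded libraries were made. Because each library is bulk tissue, fewer plastids or cells of a type and less RNA in each of them cannot be told apart, and the mixture of ovule genotypes has no values of its own.

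Plastid genes encode core proteins of the photosynthetic complexes, the large subunit of Rubisco (the enzyme that fixes carbon dioxide), part of the plastid ribosome, a bacterial-type RNA polymerase, and ribosomal and transfer RNAs. A nuclear-encoded phage-type polymerase transcribes some of them, the rpoB operon among them, and the plastid-encoded polymerase, guided by nuclear-encoded sigma factors, transcribes most photosystem genes. Many plastid genes lie in operons whose long transcripts are spliced, cut and edited by nuclear-encoded proteins. This splicing does not use the spliceosome, to which PRP8 belongs.

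Gene counts totalled 11261844 to 12644525 in the mutant-labelled libraries and 8497702 to 12460805 in wild type. PRP8A averaged 900.1 CPM (counts scaled to a fixed library total of gene counts) in the mutant-labelled libraries and 1186 CPM in wild type, and PRP8B averaged 41.6 CPM in the mutant-labelled libraries and 37.5 CPM in wild type. The 3′ part of PRP8B held 32.0%, 6.71% and 18.1% of that gene's exon bin counts in mutant-labelled replicates 1, 2 and 3, against 27.8%, 35.7% and 37.8% in wild type. By this measure mutant-labelled replicate 1 lay within the wild type range and went against its label. The low end of that range was wild type replicate 1. PRP8A was at 910, 837 and 953 CPM in mutant-labelled replicates 1, 2 and 3, against 1139, 1175 and 1245 CPM in wild type. By PRP8A, mutant-labelled replicate 1 thus lay with its label. Wild type replicate 1 stood apart in another way, since even numbers made up 77.6% of its gene counts above 0, and 47.7% to 48.6% of those in the other libraries. In plastid genes of a single exon bin its bin count was 0.540 times its gene count in the median, against 1.02 to 1.03 times in the other libraries, so its total may not be a count of single fragments, which was not tested. The labelled tissue was checked against 6 ovule markers, all of which were measured, and their summed level was 280 to 355 CPM in the mutant-labelled libraries and 353 to 420 CPM in wild type. STK (log2 fold change -0.63, adjusted p = 0.0166 in edgeR) and SHP2 (-0.42, 0.0471) were lower, and the other 4 did not pass. The 5 leaf markers summed to 3095 to 3614 CPM in the mutant-labelled libraries and 3669 to 4325 CPM in wild type, with RBCS2B lower among them. The 3 pollen genes summed to 220 to 714 CPM in the mutant-labelled libraries and 307 to 334 CPM in wild type, and PPME1 was higher (2.28, adjusted p = 0.0241 in edgeR). Of 6 markers of the carpel wall and transmitting tract, none was at 0 in every library, and they summed to 88.5 to 95.1 CPM in the mutant-labelled libraries and 71.3 to 79.9 CPM in wild type, with SPT higher (0.73, adjusted p = 0.0123 in edgeR). The 2 petal and stamen markers summed to 9.84 to 17.5 CPM in the mutant-labelled libraries and 19.1 to 23.2 CPM in wild type, but AP3, the larger of them, was at -0.71 (adjusted p = 0.0565 in edgeR) while PI was higher (1.36, adjusted p = 0.0260). The part of other tissues in the plastid values was not tested.

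Plastid genes took 10.7%, 6.47% and 8.80% of all gene counts in mutant-labelled replicates 1, 2 and 3, against 8.89%, 11.6% and 11.3% in wild type. The mean was 8.66 ± 2.13% in the mutant-labelled libraries and 10.6 ± 1.47% in wild type (SD, n = 3 each), and the groups overlapped, since mutant-labelled replicate 1 lay above wild type replicate 1. Mutant minus wild type was -1.91 percentage points, and it was -0.812 without mutant-labelled replicate 2 and -2.94 without mutant-labelled replicate 1. Mitochondrion-encoded genes took 2.96%, 14.5% and 4.85% in the mutant-labelled libraries and 6.51%, 2.41% and 2.82% in wild type. The 3 libraries with the highest mitochondrial share, mutant-labelled replicates 2 and 3 and wild type replicate 1, were those with the lowest plastid share. With mitochondrial genes left out of the library total, the plastid share was 7.56% to 11.05% in the mutant-labelled libraries, against 9.51% to 11.9% in wild type.

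**Figure D1:**
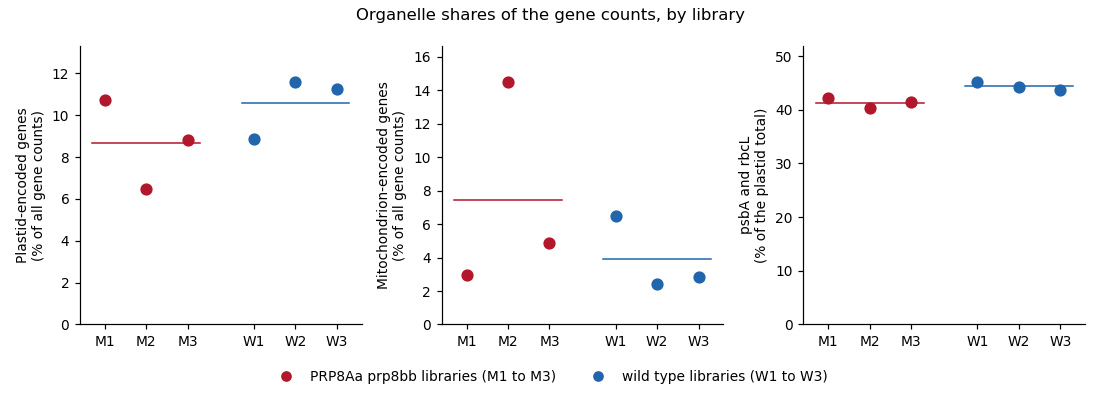
Share of plastid-encoded and of mitochondrion-encoded genes in all gene counts, and share of psbA and rbcL in the plastid total, in percent, with 1 point per library and a line at each group mean. Mutant-labelled replicate 2 has the lowest plastid share (6.47%) and the highest mitochondrial share (14.5%), and in the right panel every mutant-labelled point (40.3% to 42.2%) lies below every wild type point (43.7% to 45.1%).

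Part of the plastid genome is present as an inverted repeat, and fragments that map to more than 1 place were not counted by the authors. Of the 133 genes, 37 had at least 90% of their 100-base windows repeated within the plastid genome. These 37 genes, which include all 8 ribosomal RNA genes and both copies of rpl2, rpl23, ycf2, ndhB and rps7, held 1550 counts over the 6 libraries together, at most 0.0514% of the plastid total in any library, and 8 of them had no count at all. Their values say nothing of how much of these RNAs the ovules held. The highest ribosomal RNA gene per length, ATCG01210, had 1.48 ± 0.589 CPM per kilobase in the mutant-labelled libraries and 1.66 ± 1.71 in wild type (SD, n = 3 each). The other 96 genes, 73 protein-coding and 23 transfer RNA genes, carried nearly all plastid counts.

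Which strand the counts came from was checked before levels were read. psbN, which encodes a small protein needed to assemble photosystem II, lies on the minus strand inside the psbB operon, whose genes psbB, psbT and psbH (all photosystem II subunits) lie on the plus strand. Per length, psbN had 321 ± 126 CPM per kilobase in the mutant-labelled libraries and 613 ± 40.6 in wild type (SD, n = 3 each). psbT on its upstream side had 1389 ± 517 CPM per kilobase in the mutant-labelled libraries and 1696 ± 616 in wild type, and psbH on its downstream side had 2227 ± 397 in the mutant-labelled libraries and 2353 ± 436 in wild type. The gene opposite the operon was thus lower per length than its neighbours in each group, and the counted strand was that of the operon's genes.

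The ovule libraries held plastid messenger RNA for every photosynthetic complex. The highest gene per length was rbcL, the large subunit of Rubisco, with 14533 ± 3251 CPM per kilobase in the mutant-labelled libraries and 18812 ± 2277 in wild type (SD, n = 3 each). psbA, which encodes the D1 protein of the photosystem II reaction centre, had 14127 ± 4635 CPM per kilobase in the mutant-labelled libraries and 18584 ± 2560 in wild type, so rbcL and psbA did not differ beyond their spread in either group. The median of the 73 protein-coding genes outside the repeat was 753 CPM per kilobase in the mutant-labelled libraries and 1005 in wild type. rbcL had 25454, 16105 and 21222 CPM in mutant-labelled replicates 1, 2 and 3, against 23453, 29823 and 27991 CPM in wild type. psbA had 19816, 9979 and 15212 CPM in the mutant-labelled libraries, against 16597, 21315 and 21297 CPM in wild type, and for both genes the groups overlapped.

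**Figure D2:**
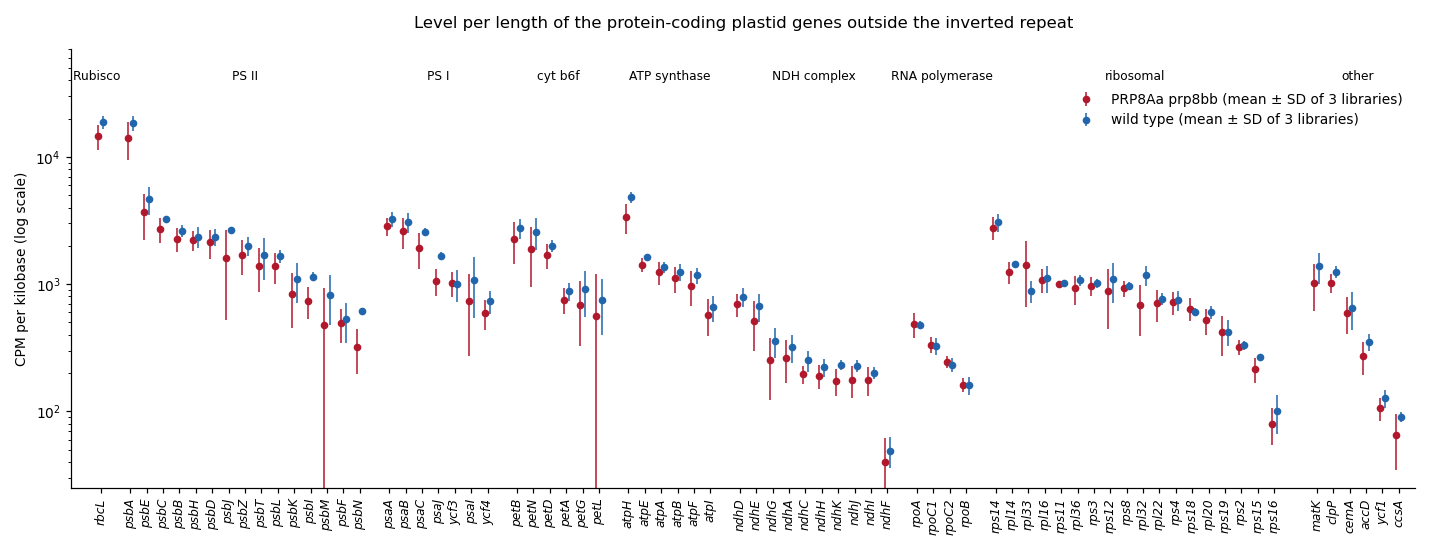
Level of the 73 protein-coding plastid genes outside the inverted repeat in CPM per kilobase on a log scale, ordered by functional class, as the mean ± SD of 3 libraries per group. rbcL and psbA lie highest and ndhF lowest, and in the mutant-labelled libraries the bars of petL, psbM and ndhF reach the lower edge of the plot.

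The leading gene of each other class was lower per length than these. In the ATP synthase it was atpH, the membrane ring subunit, with 3347 ± 888 CPM per kilobase in the mutant-labelled libraries and 4810 ± 482 in wild type (SD, n = 3 each). In photosystem I it was psaA, a reaction centre protein, with 2861 ± 459 CPM per kilobase in the mutant-labelled libraries and 3232 ± 435 in wild type. petB, cytochrome b6, led its complex with 2260 ± 818 CPM per kilobase in the mutant-labelled libraries and 2738 ± 487 in wild type. rps14 led the ribosomal proteins with 2781 ± 562 CPM per kilobase in the mutant-labelled libraries and 3086 ± 504 in wild type. matK, a maturase that acts on group II introns, led the remaining protein genes with 1027 ± 410 CPM per kilobase in the mutant-labelled libraries and 1376 ± 380 in wild type. The NDH complex, which carries electrons around photosystem I, was low throughout, and its highest member ndhD had 697 ± 142 CPM per kilobase in the mutant-labelled libraries and 789.8 ± 135 in wild type. The RNA polymerase genes were led by rpoA, below the leading NDH gene, with 485 ± 108 CPM per kilobase in the mutant-labelled libraries and 479 ± 34.1 in wild type. Their median was 290 CPM per kilobase in the mutant-labelled libraries and 281 in wild type, and that of the 10 NDH genes outside the repeat was 193 in the mutant-labelled libraries and 242 in wild type.

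Other abundant members by level of all counts were the photosystem genes psaA, psaB, psbC, psbB and psbD, the ATP synthase genes atpA and atpB, and matK. psaA had 7390, 5341 and 6609 CPM in the mutant-labelled libraries, against 6151, 7865 and 7828 CPM in wild type. psaB, its partner in the reaction centre, had 7207, 4037 and 6015 CPM in the mutant-labelled libraries, against 5343, 7548 and 7320 CPM in wild type. For both, mutant-labelled replicate 2 was lowest and the groups overlapped. psbC, a core antenna protein of photosystem II, averaged 3861 ± 856 CPM in the mutant-labelled libraries and 4585 ± 185 CPM in wild type (SD, n = 3 each). psbB, the other core antenna protein, averaged 3477 ± 757 CPM in the mutant-labelled libraries and 3995 ± 422 CPM in wild type. psbD, the D2 reaction centre protein, averaged 2264 ± 581 CPM in the mutant-labelled libraries and 2499 ± 371 CPM in wild type. atpA and atpB, the alpha and beta subunits of the ATP synthase, averaged 1884 ± 390 and 1667 ± 385 CPM in the mutant-labelled libraries, against 2069 ± 189 and 1875 ± 284 CPM in wild type. The 10 genes of highest level together made up 72.6 ± 0.344% of the plastid total in the mutant-labelled libraries and 73.9 ± 0.758% in wild type.

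Among transfer RNA genes outside the repeat, 4 span an intron and had a median of 240 CPM in the mutant-labelled libraries and 366 CPM in wild type, while the other 19 had a median of 1.99 CPM in the mutant-labelled libraries and 1.84 CPM in wild type. The highest per length was trnL (ATCG00400), with 6317 ± 2315 CPM per kilobase of exon in the mutant-labelled libraries and 8582 ± 3717 in wild type (SD, n = 3 each). Transfer RNAs are close to the shortest fragments that such libraries hold, so these counts can come from longer precursors as well as from the mature RNA, which was not tested.

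The makeup of the plastid RNA was then compared as the percentage of the plastid total that each functional class took, as a description with no test. psbA and rbcL together made up 42.2%, 40.3% and 41.4% of the plastid total in mutant-labelled replicates 1, 2 and 3, against 45.1%, 44.2% and 43.7% in wild type, with no overlap. This pair is not one of the functional classes, and each of its genes alone overlapped between the groups. psbA took 18.5%, 15.4% and 17.3% in the mutant-labelled libraries, against 18.7%, 18.4% and 18.9% in wild type. The 4 RNA polymerase genes took 2.75%, 3.50% and 3.29% in the mutant-labelled libraries, against 2.51%, 2.45% and 2.50% in wild type. The ribosomal protein genes took 5.64%, 6.96% and 6.29% in the mutant-labelled libraries, against 5.55%, 5.30% and 5.33% in wild type. Photosystem I took 15.3%, 16.1% and 16.0% in the mutant-labelled libraries, against 14.5%, 15.0% and 15.2% in wild type. In these 3 classes every mutant-labelled value lay above every wild type value, and mutant-labelled replicate 1 lay nearest to wild type in each. Shares are parts of the same total, so where some are lower others must be higher. Of the 7 genes classed under photosystem I, ycf3 alone lay higher and psaJ alone lower without overlap. psaA took 6.89%, 8.26% and 7.51% of the plastid total in the mutant-labelled libraries, against 6.92%, 6.80% and 6.94% in wild type. psaB took 6.72%, 6.24% and 6.83%, against 6.01%, 6.53% and 6.49%, and both overlapped.

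The other classes overlapped between the groups. Photosystem II averaged 31.2% of the plastid total in the mutant-labelled libraries and 32.3% in wild type, and the cytochrome b6f complex averaged 3.77% in each. The ATP synthase averaged 6.85% in the mutant-labelled libraries and 6.59% in wild type, and the NDH complex 2.67% in the mutant-labelled libraries and 2.62% in wild type. Rubisco, which is rbcL alone, took 23.7% to 24.9% in the mutant-labelled libraries and 24.8% to 26.4% in wild type, and with ribosomal and transfer RNA genes left out of the plastid total its groups no longer overlapped (24.2% to 25.3% in the mutant-labelled libraries, against 25.4% to 26.7% in wild type). Transfer RNA genes took 1.51% to 2.13% in the mutant-labelled libraries and 1.17% to 2.28% in wild type.

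**Figure D3:**
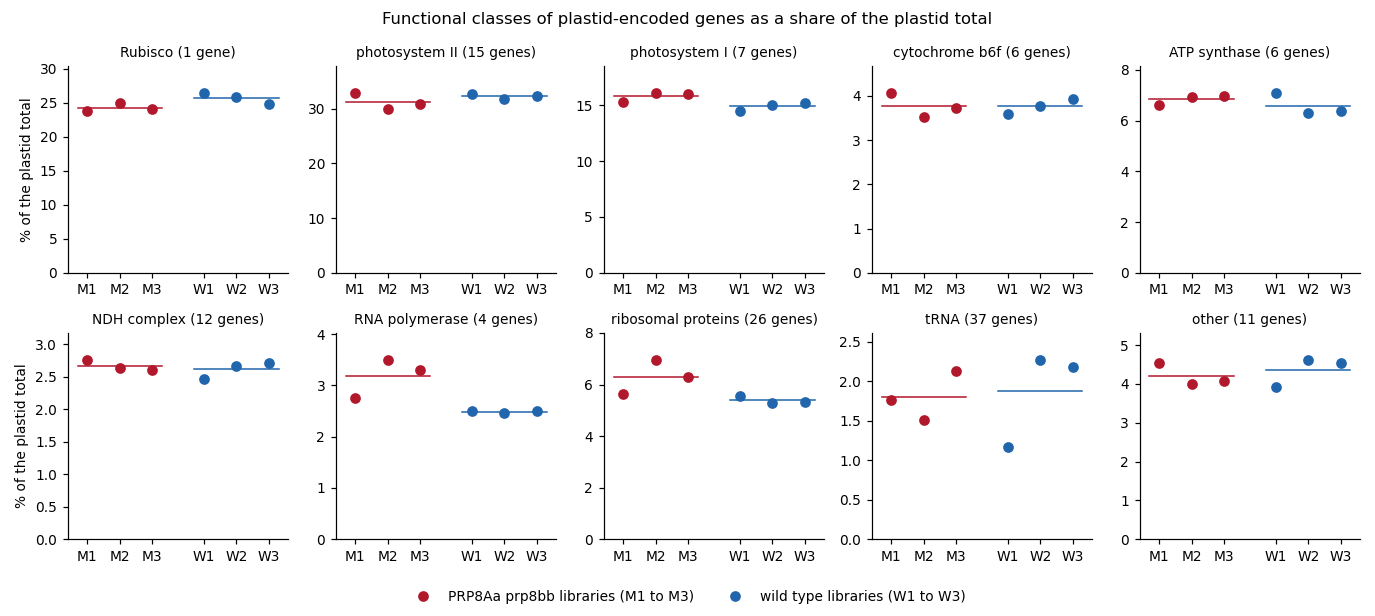
Share of each functional class in the plastid total, in percent, with 1 point per library and a line at each group mean; ribosomal RNA genes are left out. RNA polymerase, ribosomal protein and photosystem I genes are the classes in which the mutant-labelled points all lie above the wild type points.

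Single genes were then followed within this makeup, the RNA polymerase genes among them. rpoB, rpoC1 and rpoC2 lie in a single operon and encode the large polymerase subunits. rpoC2 took 1.01%, 1.37% and 1.23% of the plastid total in the mutant-labelled libraries, against 0.919%, 0.903% and 0.914% in wild type. rpoC1 took 0.721%, 0.890% and 0.796% in the mutant-labelled libraries, against 0.621%, 0.630% and 0.648% in wild type, and rpoB 0.525%, 0.691% and 0.635%, against 0.475%, 0.507% and 0.485%. None of the 3 overlapped between the groups, while rpoA, which lies in a ribosomal protein operon, did. Over all plastid genes tested, 12 had a share of the plastid total that was higher in every mutant-labelled library than in every wild type library, and 4 had a lower one. Besides rpoB, rpoC1 and rpoC2, the 12 were psbD, rps14, ycf3, rps4, atpB, petA, rpl16, ndhI and ATCG00290, so most were of other classes. By the same measure, 16.9% of all 19297 genes tested lay higher and 4.31% lower. Scaling to the plastid total put the median log2 fold change of all genes at 0.23 and that of the plastid genes at 0.06. The plastid genes are parts of that total and most other genes are not, so these shares are not a like background for them. In CPM the rpo genes overlapped, with rpoC2 at 1087, 883 and 1081 CPM in the mutant-labelled libraries, against 816, 1044 and 1030 CPM in wild type.

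The question whether single plastid genes differed between the genotypes was put to a quasi-likelihood test on all 19297 genes with enough counts (edgeR, Benjamini-Hochberg adjusted p under 0.05). Of the 133 plastid genes, 102 entered the test, of which 2 were lower in the mutant-labelled libraries and none was higher. Over all genes tested, 2.79% were lower and 3.05% were higher, so in this fit the plastid genes were called less often or about as often as genes in general. Without adjustment, 8 plastid genes had a lower level and 1 a higher one at p under 0.05, where 9.47% and 9.49% of all genes did. The 8 became 32 of 104 without mutant-labelled replicate 1, where 2102 of all 19545 genes tested were lower at that cutoff. They became 21 of 102 without wild type replicate 1, where 2038 of 19647 were lower. Without mutant-labelled replicates 2 and 3 they became 7 and 4, where 1599 of 19735 and 1368 of 19658 were lower. Without wild type replicates 2 and 3 they became 6 and 4, where 1683 of 19529 and 1405 of 19485 were lower. With the DESeq2 Wald test 4 were lower and 1 was higher, where 3.39% and 3.48% of all genes were called. Log2 fold changes were negative for 73 and positive for 29 of the 102, with a median of -0.18, against -0.01 over all genes tested. The plastid median was -0.30 without mutant-labelled replicate 1, -0.057 without mutant-labelled replicate 2, -0.29 without wild type replicate 1 and -0.11 without wild type replicate 2. With each library scaled to its own plastid total, which moved the median of all genes to 0.23, the plastid median was 0.06 and 44 were negative. Under that scaling no plastid gene was lower and 1 was higher, where 1.73% and 3.63% of all genes were called.

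psbI and psaJ were the plastid genes that fell. psbI (ATCG00080, TAIR10 plastid genome, 7583 to 7693, plus strand, a single coding exon) encodes a small membrane subunit of the photosystem II core. It had 92.8, 55.4 and 96.9 CPM in mutant-labelled replicates 1, 2 and 3, against 120, 138 and 124 CPM in wild type. All mutant-labelled libraries were below all wild type libraries, and replicate 2 was lowest. The log2 fold change was -0.58 (SE 0.15, adjusted p = 0.0481). psaJ (ATCG00630, 66929 to 67063, plus strand, a single coding exon) encodes a small membrane subunit of photosystem I. It had 175, 106 and 150 CPM in the mutant-labelled libraries, against 207, 241 and 225 CPM in wild type, again with no overlap, and the fitted log2 fold change of -0.59 passed the test (SE 0.13, adjusted p = 0.0230). Over the 102 plastid genes, 8 were lower and 1 was higher with no overlap in CPM, where 15.3% and 8.29% of all genes tested were.

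The calls rested on small margins. The psbI call was lost without any of the 6 libraries, with adjusted p of 0.0664, 0.0620 and 0.0709 without mutant-labelled replicates 1, 2 and 3 and of 0.0718, 0.131 and 0.139 without wild type replicates 1, 2 and 3. The psaJ call was lost without mutant-labelled replicate 3 (adjusted p = 0.111), wild type replicate 2 (0.0727) or wild type replicate 3 (0.101), and with each library scaled to its plastid total psbI (adjusted p = 0.400) and psaJ (0.392) were both lost. The number of plastid genes that were lower was 7, 1 and 1 without mutant-labelled replicates 1, 2 and 3 and 4, 0 and 0 without wild type replicates 1, 2 and 3. The shares of all genes that were lower in these fits were 2.78%, 2.08% and 0.921% without mutant-labelled replicates 1, 2 and 3 and 3.6%, 2.29% and 1.02% without wild type replicates 1, 2 and 3. Without mutant-labelled replicate 1, 6.73% of the plastid genes tested were lower, above the share of all genes. That library went against its label in the PRP8B bins but not in PRP8A.

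The reading frames of both genes, and that of psbN, are shown because they are among the shortest protein-coding genes of the plastid and are the coding genes of smallest p. They are given on their coding strand from the RefSeq plastid genome of TAIR10.1, whose positions match those of the files, with the start and stop codons in capitals.
psbI: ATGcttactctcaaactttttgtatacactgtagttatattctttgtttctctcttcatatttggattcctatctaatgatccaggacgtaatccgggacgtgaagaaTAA
psaJ: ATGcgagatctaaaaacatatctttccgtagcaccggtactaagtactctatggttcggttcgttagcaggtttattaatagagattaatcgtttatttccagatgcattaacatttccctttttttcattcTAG
psbN: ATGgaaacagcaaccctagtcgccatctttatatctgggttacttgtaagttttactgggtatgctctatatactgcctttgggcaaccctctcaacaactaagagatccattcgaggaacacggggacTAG
The frames are 111, 135 and 132 bases long, with a GC content of 34.2%, 34.8% and 44.7%.

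**Figure D4:**
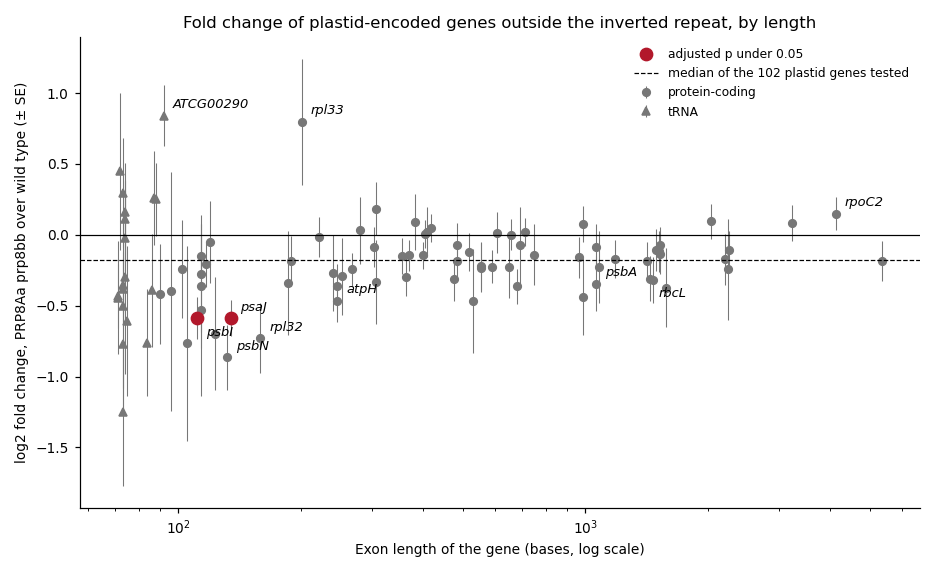
Log2 fold change (mutant-labelled over wild type, ± SE) of the plastid genes tested outside the inverted repeat against exon length in bases on a log scale, with protein-coding genes as circles and transfer RNA genes as triangles. psbI and psaJ, in red, passed the threshold at -0.58 and -0.59, and all 14 protein-coding genes under 150 bases lie below 0, as do 11 of the 14 when each library is scaled to its plastid total.

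The next genes by p did not pass. psbN (74249 to 74380, minus strand) had 32.7, 33.0 and 61.5 CPM in the mutant-labelled libraries, against 87.0, 79.0 and 76.8 CPM in wild type. The groups did not overlap, and the log2 fold change was -0.87 (SE 0.23, adjusted p = 0.0761; 0.00338 with the DESeq2 Wald test). Its neighbours psbT and psbH on the opposite strand had log2 fold changes of -0.24 (SE 0.35) and -0.01 (SE 0.14), and psbB one of -0.14 (SE 0.14), none of which passed. atpH had 1072, 662 and 736 CPM in the mutant-labelled libraries, against 1319, 1131 and 1099 CPM in wild type, with a log2 fold change of -0.46 (SE 0.15, adjusted p = 0.120). ndhK, a subunit of the NDH complex, had 144, 89.1 and 120 CPM in the mutant-labelled libraries, against 142, 165 and 165 CPM in wild type (log2 fold change -0.36, SE 0.12, adjusted p = 0.128). Without mutant-labelled replicate 1, atpH (adjusted p = 0.0210) and ndhK (0.0467) passed, and without mutant-labelled replicate 3 psbN passed (0.00785).

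Among genes with a positive fold change, ATCG00290 had the smallest p. It had 163, 161 and 208 CPM in the mutant-labelled libraries, against 69.5, 111 and 131 CPM in wild type, with no overlap. The fitted log2 change of 0.84 (SE 0.21, adjusted p = 0.0645) missed the threshold. It was past it in DESeq2 (adjusted p = 0.00151), under scaling to the plastid total (0.00791), without wild type replicate 1 (0.0214) and without wild type replicate 3 (0.0492). The files place this transfer RNA gene at 35312 to 35403 on the plus strand, while RefSeq has a serine transfer RNA gene with the same ends on the minus strand. The counts therefore come from the strand opposite to the transfer RNA, which is the strand of psbC (33720 to 35141) on its left and psbZ (35751 to 35939) on its right. The stretch is shown on the strand of the RefSeq transfer RNA, and the counted fragments read its complement.
trnS: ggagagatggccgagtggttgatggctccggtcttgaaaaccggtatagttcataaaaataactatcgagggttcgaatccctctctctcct
The flanking genes psbC and psbZ, a photosystem II subunit, had log2 fold changes of -0.18 (SE 0.13) and -0.19, and of 0.038 and 0.036 under scaling to the plastid total.

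The remaining genes of smallest p with a positive fold change were rpl33, rpoC2, ATCG00900 and ATCG01280. rpl33, a protein of the large ribosomal subunit, had 183, 459 and 211 CPM in the mutant-labelled libraries, against 139, 192 and 206 CPM in wild type. Mutant-labelled replicate 2 alone lay far above the others, and the log2 fold change of 0.80 (SE 0.45, adjusted p = 0.406) did not pass. rpoC2 had a log2 fold change of 0.15 (SE 0.12, adjusted p = 0.535). ATCG00900 (rps7) and ATCG01280 (ycf2) are repeat copies with means of 1.49 and 1.36 CPM in the mutant-labelled libraries and 0.926 and 0.792 CPM in wild type.

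Genes next to psbI and psaJ, named here after their values had been seen, did not pass the test, and whether they differed from psbI or psaJ was not tested. psbK, the gene before psbI on the same strand, had 230, 88.2 and 149 CPM in the mutant-labelled libraries, against 123, 231 and 256 CPM in wild type. The gene after psbI on that strand is the transfer RNA gene ATCG00090 (7785 to 7872). It had 99.6, 53.7 and 115 CPM in the mutant-labelled libraries, against 56.7, 83.1 and 94.1 CPM in wild type. These groups overlapped, and the log2 fold change was 0.25 (SE 0.26), opposite in sign to that of psbI. On the strand of psaJ, petL and petG (small cytochrome b6f subunits) lie before it and rpl33 and rps18 (ribosomal proteins) after it. petG had 123, 40.5 and 72.5 CPM in the mutant-labelled libraries, against 56.3, 130 and 126 CPM in wild type. rps18 had 178, 242 and 169 CPM in the mutant-labelled libraries, against 171, 190 and 194 CPM in wild type. For psbK, petG and rps18 the groups overlapped, and the log2 fold changes were -0.34 (SE 0.37), -0.36 (SE 0.44) and 0.18 (SE 0.19). Mutant-labelled replicate 2 was the lowest library for psaJ, psbK and petG and the highest for rpl33 and rps18.

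Short protein-coding genes varied more between libraries of the same group than long ones. Of the 14 under 150 bases outside the repeat, 8 differed at least 2-fold between the highest and lowest mutant-labelled library and 7 between the highest and lowest wild type library. Of the 59 longer ones, 12 and 2 did. By this ratio petL, chosen after the values had been seen, was the most variable of these 73 genes in the mutant-labelled libraries, with 125, 14.8 and 21.5 CPM in the mutant-labelled libraries, against 34.7, 80.6 and 99.1 CPM in wild type. psbM, a small photosystem II subunit, had 104, 23.8 and 21.2 CPM in the mutant-labelled libraries, against 45.5, 99.0 and 116 CPM in wild type. psaI, a small photosystem I subunit, had 135, 30.5 and 84.8 CPM in the mutant-labelled libraries, against 51.7, 158 and 161 CPM in wild type. In petL and psbM the low libraries were mutant-labelled replicates 2 and 3 and wild type replicate 1, the same 3 that had the highest mitochondrial shares, and the part of library quality in these levels was not tested.

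**Figure D5:**
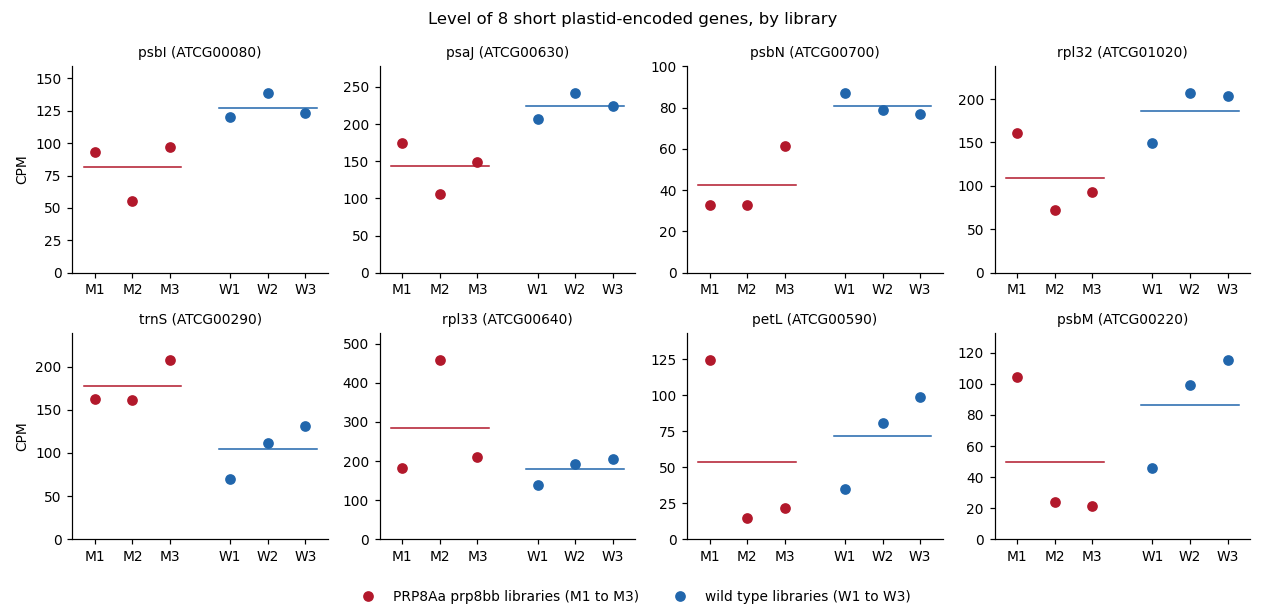
Level in CPM of 8 short plastid-encoded genes, with 1 point per library and a line at each group mean. psbI, psaJ and psbN are lower, and ATCG00290 is higher, in every mutant-labelled library than in every wild type library, while rpl33 is set apart by mutant-labelled replicate 2 (459 CPM) and petL and psbM are low in mutant-labelled replicates 2 and 3 and wild type replicate 1.

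As a set, all 14 short genes had negative log2 fold changes, 11 of them also under scaling to the plastid total, with a median of -0.41 and a range of -0.87 to -0.05, and 2 passed the test. Of the 59 longer ones 45 were negative, with a median of -0.16, and none passed. Scaled to the plastid total, 21 of the 59 were negative, and the medians were -0.24 for the 14 and 0.07 for the 59. Together the 14 made up 1.98%, 1.39% and 1.57% of the plastid total in the mutant-labelled libraries, against 1.76%, 1.99% and 2.04% in wild type, so the groups overlapped.

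By class, all 15 photosystem II genes, all 6 ATP synthase genes, all 6 cytochrome b6f genes and all 10 NDH genes outside the repeat had negative log2 fold changes, with medians of -0.24, -0.14, -0.29 and -0.27. Within photosystem II psbI passed, and within photosystem I psaJ did, where 6 of 7 genes were negative (median -0.23). The 4 RNA polymerase genes were all positive, from 0.08 to 0.15, but rpoB and rpoC1 were at -0.035 and -0.016 without wild type replicate 1 and rpoA at -0.025 without mutant-labelled replicate 3. Of the 18 ribosomal protein genes outside the repeat 9 were negative and 9 positive (median -0.03). None of those passed. The 19 transfer RNA genes tested outside the repeat had 12 negative and 7 positive values (median -0.36), none of which passed. Under scaling to the plastid total the directions shifted, and the 4 RNA polymerase genes stayed positive while 8 of 15 photosystem II, 2 of 6 ATP synthase, 4 of 6 cytochrome b6f and 7 of 10 NDH genes were negative.

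The authors' deposited table of differences between the genotypes, which lists only genes past their threshold, holds 5 plastid genes among 1543. In the authors' deposited table psbI has a log2 fold change of -0.58 (adjusted p = 0.0112), psaJ -0.58 (0.00158), psbN -0.86 (0.00348) and ATCG00290 0.85 (0.00156). The fifth in the authors' deposited table is rpl32, a protein of the large ribosomal subunit, at -0.73 (0.0232). In the gene counts rpl32 had 161, 71.8 and 92.9 CPM in the mutant-labelled libraries, against 150, 207 and 204 CPM in wild type. Mutant-labelled replicate 1 lay above wild type replicate 1, and the quasi-likelihood test gave an adjusted p of 0.164, against 0.00550 without mutant-labelled replicate 1 and 0.0229 in DESeq2.

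The libraries were also compared by the makeup of their plastid RNA, as the median absolute log2 difference in share over 85 plastid genes with at least 50 counts on average. Mutant-labelled replicate 1 was nearer to wild type replicates 3 (0.0970) and 2 (0.104) than to mutant-labelled replicates 3 (0.196) and 2 (0.233). Wild type replicates 2 and 3 were nearest to each other (0.0546), and wild type replicate 1 was 0.208 and 0.224 away from them. Over 15550 nuclear genes the distances of mutant-labelled replicate 1 to mutant-labelled replicate 3 and to wild type replicate 3 were 0.143 and 0.142. As means in place of medians over the nuclear genes, these were 0.189 and 0.229, so by the mean it was nearest to mutant-labelled replicate 3. Its mean distance was 0.293 to mutant-labelled replicate 2 and 0.262 to wild type replicate 2.

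Exon bins, non-overlapping pieces of the annotated exons, were tested for a change in usage relative to the other bins of the same gene group. The plastid genes and the genes merged with them had 176 bins in 130 groups, of which 100 groups were a single bin and 56 bins in 24 groups could be tested. No plastid bin passed in edgeR's diffSpliceDGE, and none had an unadjusted p under 0.05. Over all 116071 bins tested, 0.00172% were called with lower usage and 0% with higher usage, so the test made few calls anywhere. The bin of smallest p was one of trnK (1717 to 1751, minus strand), a transfer RNA gene with an intron that holds matK. That bin held 8.34%, 5.33% and 5.43% of the gene's bin counts in the mutant-labelled libraries, against 2.89%, 5.39% and 7.17% in wild type. Next by p were bins of both ndhB copies, of the overlapping psbD and psbC, and of trnV (ATCG00450).

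The authors' deposited intron table names no sample, so its values describe ovules of unknown genotype and were not compared. It lists 10 introns in 9 plastid genes. The retention ratio, the fraction of transcripts that keep the intron, was lowest for an intron of clpP, a protease subunit, at 0.0953 in the authors' deposited table, with 3550 reads spliced across it, and 0.316 for the other clpP intron. Further ratios in the authors' deposited table were 0.282 for atpF, 0.383 for petD, 0.420 for rpoC1, 0.438 for ycf3, 0.461 for petB and 0.513 for rpl16. The highest with spliced reads was ndhA at 0.820, from 41 spliced reads in the authors' deposited table. No spliced read was listed for rps16, a gene whose intron is 865 bases long, and the authors' deposited table marks it as low in splicing. Introns therefore ranged from mostly spliced to mostly present, and all but those of petB and petD carry a warning, low splicing for rps16 and uneven coverage for the others.

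Nuclear genes that act on plastid RNA were compared in the same fit. Of 21 genes for plastid transcription, none passed in either direction, with a median log2 fold change of 0.04, against -0.01 over all genes tested. The phage-type polymerase RPOTp (also SCA3) had 91.5 ± 8.62 CPM in the mutant-labelled libraries and 92.8 ± 9.84 CPM in wild type (SD, n = 3 each; log2 fold change 0.05, adjusted p = 0.844). AT5G15700, annotated as a polymerase of the same superfamily, had 31.4, 28.8 and 31.9 CPM in the mutant-labelled libraries, against 24.1, 20.1 and 26.2 CPM in wild type, without overlap (log2 fold change 0.46, adjusted p = 0.0656). Of the sigma factors, SIG2, SIG3 and SIG6 had log2 fold changes of -0.03, 0.05 and -0.04. SIG1 was at -0.38 (adjusted p = 0.485), SIG4 at 0.63 (0.183) and SIG5, a sigma factor induced by stress and blue light, at -0.56 (0.0606).

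Of 19 measured genes for plastid RNA processing, 1 rose and none fell, with a median of 0.06. The gene that rose, AT5G63420 (emb2746), is annotated as an RNA-metabolising metallo-beta-lactamase protein and had 59.1 CPM on average in the mutant-labelled libraries and 44.6 CPM in wild type (log2 fold change 0.48, SE 0.11, adjusted p = 0.0366). Its adjusted p was 0.0646, 0.0606 and 0.154 without mutant-labelled replicates 1, 2 and 3 and 0.118 and 0.166 without wild type replicates 2 and 3.

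Of 20 nuclear partners of the photosynthetic complexes, 1 fell and none rose, while 18 of 20 had a negative log2 fold change (median -0.21). RBCS2B, a gene for the small subunit of Rubisco, fell to 77.4 CPM on average in the mutant-labelled libraries, against 208 CPM in wild type (log2 fold change -1.36, SE 0.16, adjusted p = 0.00188). RBCS1A, the most abundant small subunit gene measured, had 2033 CPM on average in the mutant-labelled libraries and 2173 CPM in wild type (log2 fold change -0.02, adjusted p = 0.960). RCA, Rubisco activase, had 496 CPM in the mutant-labelled libraries and 782 CPM in wild type (log2 fold change -0.57, adjusted p = 0.0709). RCA was past the threshold in DESeq2 (adjusted p = 0.0177), when genes of low counts were kept (0.0341), and when mutant-labelled replicate 2 was left out (0.00566). The RBCS genes are close copies of each other, so reads can be split between them in ways that differ with the counting.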

How the data were processed

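Per the labels, stranded libraries of ribosome-depleted total RNA were sequenced in pairs. The submitters' processing notes name Trimmomatic, STAR, featureCounts of Subread 1.6.0, DESeq2 and TAIR10. Per the file headers, the deposited counts are fragments per gene (annotation release 37, strand setting 1, without multi-mapping fragments), and per exon bin, where a fragment can count in several bins. The authors' deposited comparison holds adjusted p-values, a mean signal and log2 fold changes. The deposited intron table gives a depth (coverage) signal, counts of spliced reads and a retention fraction, and its 10 other value columns were not used; the program that made it is not given in the sources used here.

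CPM values divide counts by the library total, before any TMM scaling. Tests used edgeR 4.0.16 (glmQLFit, glmQLFTest, robust, TMM, filterByExpr, no covariate) and diffSpliceDGE (bins with 10 or more counts in 3 or more libraries) in R 4.3.3 on the whole tables, with DESeq2 1.42.0 as an alternative, after being tested on simulated data. The biological coefficient of variation was 14.9%. Positions matched RefSeq TAIR10.1 exactly for 124 of the 133 genes. A further 5 shared 1 end, 1 had the same ends on the opposite strand, 1 was an identical copy and 2 had no match. Names came from these matches. Classes follow symbol prefixes, except that the assembly factors ycf3 and ycf4 were placed in photosystem I. The labels call the replicates biological without naming separate plants, and the spread behind the p-values may be partly technical.

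The members, gene lists and tests were chosen with earlier results of these data known. Named members are the 10 of highest CPM, those past the threshold, the 5 of smallest p in each direction, the leader per length of each class, the psbB operon genes and the 5 bins of smallest p. Named nuclear genes are those past the threshold, both polymerases, the sigma factors, RBCS1A and RCA. One listed processing gene was not analysed here. Figures used Python 3.11.15 and matplotlib 3.10.9.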

Additional observations from a re-analysis of the deposited data

How the results depend on the processing

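With 3 libraries a group, calls of single plastid genes moved with the processing. Of the libraries, 1 went against its label in the PRP8B bins but not in PRP8A, and 1 had mostly even counts. Against 2 plastid genes lower and 0 higher, the DESeq2 Wald test gave 4 lower and 1 higher, upper-quartile factors 1 lower, and scaling to the plastid total 0 lower and 1 higher. Exon bin counts summed per gene, an alternative chosen after seeing the data, also gave 1 higher. Leaving out each library in turn gave 0 to 7 lower and 0 to 1 higher. ATCG00290 was the gene called higher in each of these. psbI missed the threshold under upper-quartile factors, at an adjusted p of 0.0543, and in summed exon bins, at 0.222 with a log2 fold change of -0.42. Its bin counts were 1685, 760 and 1552 in mutant-labelled replicates 1, 2 and 3, against gene counts of 1174, 625 and 1091. The next gene on its strand, ATCG00090, had bin counts of 1747, 791 and 1864 there, against gene counts of 1259, 606 and 1299. The cause was not tested. Scaling from nuclear genes, no filter on low counts, a filter of 1 CPM and halving the counts of wild type replicate 1 each left 2 lower and 0 higher. The share of higher genes among all calls was 67.8% under scaling to the plastid total, against 52.2% under TMM. All calls numbered 539 lower and 589 higher, against 181 and 250 without mutant-labelled replicate 3 and 198 and 257 without wild type replicate 3.

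The correlations of the deviations of same-numbered libraries from their group means were -0.0495, -0.0506 and 0.0937. Those of differently numbered libraries ran from -0.122 to 0.109. With 3 libraries a group, whose deviations sum to 0, these values cannot settle whether the replicate numbers pair the libraries. With replicate number as a block, 0 plastid genes were lower and 1 was higher, with adjusted p of 0.0950 for psbI, 0.0577 for psaJ and 0.0106 for ATCG00290. ATCG01210 was at 0.23, and 0 genes of plastid RNA processing were higher.

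Signs turned for genes that had not passed, given here as log2 fold changes. Scaling to the plastid total put atpA at 0.16, psbD at 0.14, psbC at 0.038, rps14 at 0.15, psaB at 0.057, psaA at 0.13, atpB at 0.12, psbB at 0.094, psbH at 0.23, psbZ at 0.036, ndhD at 0.12 and ATCG01210 at 0.18. ATCG01210 was at 0.26 with wild type replicate 1 halved and at 0.28 with summed exon bins. Over the fits that left out 1 library, the range was -0.14 to 0.028 for atpA, -0.19 to 0.052 for psbD, -0.15 to 0.065 for psbH, -0.025 to 0.19 for rpoA, -0.016 to 0.16 for rpoC1, -0.035 to 0.18 for rpoB, -1.86 to 0.015 for petL, -0.091 to 0.31 for rps18 and -0.46 to 1.21 for ATCG01210. It was -0.13 to 0.049 for SIG2 (AT1G08540), -0.073 to 0.053 for RBCS1A (AT1G67090), -0.027 to 0.14 for RPOTp (AT2G24120), -0.091 to 0.012 for SIG6 (AT2G36990) and -0.039 to 0.14 for SIG3 (AT3G53920).

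Of the nuclear lists, plastid transcription had 1 gene higher with no filter on low counts (AT5G15700, adjusted p = 0.0457) and 0 to 1 lower without a library. RNA processing had 0 to 1 lower and 0 to 1 higher without a library. Nuclear partners had 2 lower with DESeq2, 2 with no filter and 1 to 3 without a library. The mutant minus wild type difference in each class share was recomputed without ribosomal and transfer RNA genes and in exon bin counts. It moved by less than the larger of the group SDs, but for some classes by more than the smaller. In exon bin counts the ATP synthase averaged 5.12% in the mutant-labelled libraries and 5.10% in wild type. The cytochrome b6f complex averaged 4.79% in the mutant-labelled libraries and 4.85% in wild type there, a turn in sign. The shares themselves moved in exon bin counts, where the plastid total was at most 5.84% in the mutant-labelled libraries and at most 6.05% in wild type (difference -0.981 percentage points) and photosystem II averaged 26.4% in the mutant-labelled libraries and 27.7% in wild type. No plastid bin was called in any alternative.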
